A study of Mus musculus with 99 samples.

Results

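Retinoic acid is the hormone-like derivative of vitamin A, and 10 genes of its pathway are described here: the receptors Rara, Rarb and Rarg, the binding proteins Crabp1 and Crabp2, the degrading enzymes Cyp26a1, Cyp26b1 and Cyp26c1, the synthesising enzyme Aldh1a2 and the retinol transporter Stra6. They were taken by name from a fixed list of retinoid genes, and all 10 were among the 55341 gene names of the RNA count table. Their RNA was followed in 16 libraries, and their chromatin in the peak lists of 69 ChIP-seq libraries of 12 antibodies, at the gene body with 2.5 kb to either side.

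The cells were mouse embryonic stem cells (ESC). The line called Parental is RING1A-/-;RING1B fl/fl with a ROSA26::creERT2 allele, so that 4-hydroxytamoxifen (OHT, 0.5 µM for 72 h) deletes RING1B and leaves the cells without either catalytic subunit of Polycomb repressive complex 1 (PRC1). Stable sub-clones of this line carry a tagged RING1B WT or RING1B I53S transgene driven by the pCAG promoter, and RING1B I53S is a catalytically inactive form. MTF2 KO derivatives of these lines were used for SUZ12 and H3K27me3 ChIP-seq only. In a separate ESC line, Eed fl/fl with ROSA26:creERT2, OHT deletes EED, a core subunit of PRC2. The paper lists separate clones of Eed fl/fl cells, and the labels do not name the clone of a library. Each of the 4 RNA lines was sequenced without OHT (ethanol vehicle) and with OHT, with 2 replicates a group. The ChIP-seq data hold 1 library for each antibody and condition, except for MTF2 and JARID2 with OHT in the RING1B WT and RING1B I53S lines, which have 2 at 72 h.

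As background, retinol is taken up through STRA6, oxidised to retinaldehyde and then to retinoic acid by ALDH1A2, carried in the cytoplasm by CRABP1 and CRABP2, and broken down by the CYP26 enzymes. The receptors RARA, RARB and RARG pair with RXR proteins on DNA and switch genes on when retinoic acid is bound. Several pathway genes, Cyp26a1 and Rarb among them, are themselves classical targets of these receptors, and many retinoid genes carry Polycomb marks in ESC. PRC1 ubiquitinates histone H2A (H2AK119ub1) and PRC2 methylates histone H3 (H3K27me3).

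The start-site sequences are shown first, since the RNA and the peaks both bear on them. Retinoic acid receptors bind repeats of a hexamer, and 4 spellings of it were searched on both strands in windows from 250 bases before to 50 after the start, from RefSeq (GRCm38.p6). The spellings were AGGTCA and AGTTCA. With G at the start they were GGGTCA and also GGTTCA. Of the 10 members, 9 had 16 windows in all, and Crabp2 had none. A direct repeat of the hexamer with a spacer of 5 bases was present in 32 of 32851 windows of all genes (0.0974%), and the single windows of Rarb and Cyp26a1 were among those 32. A repeat with a spacer of 2 bases (0.268% of all windows) or of 1 base (0.222%) was found in no member, and a single hexamer, which 43.7% of all windows hold, was also found in windows of Rara, Rarg and Stra6. The repeat of Rarb ran from base −53 to base −37 of the start and read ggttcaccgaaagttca on the gene's strand. That of Cyp26a1 ran from −32 to −16 on the opposite strand and read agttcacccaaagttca. These are matches of letters, and binding of a receptor was not measured. The 250 bases before the start of both genes follow, with the hexamers in capitals, for Rarb at chr14:16575477-16575726 on the minus strand and for Cyp26a1 at chr19:37697558-37697807 on the plus strand.
Rarb: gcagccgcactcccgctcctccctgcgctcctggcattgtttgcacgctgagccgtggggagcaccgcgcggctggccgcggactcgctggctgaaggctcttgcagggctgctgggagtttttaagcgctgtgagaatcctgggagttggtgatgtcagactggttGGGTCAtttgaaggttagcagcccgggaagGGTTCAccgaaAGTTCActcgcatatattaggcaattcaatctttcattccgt
Cyp26a1: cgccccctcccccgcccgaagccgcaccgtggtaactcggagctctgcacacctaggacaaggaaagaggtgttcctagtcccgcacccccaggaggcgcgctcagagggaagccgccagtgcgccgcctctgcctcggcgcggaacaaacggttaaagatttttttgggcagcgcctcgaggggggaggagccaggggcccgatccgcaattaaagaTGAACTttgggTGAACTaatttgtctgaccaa

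Crabp1 and Aldh1a2 had no hexamer in their windows, and their sequences are shown because Polycomb peaks lay over both starts and because they differ in CpG content. Polycomb complexes are known to favour CpG-rich DNA. The window of Aldh1a2 held 50 CpG, more than 99.1% of all windows, and that of Crabp1 held 17, more than 68.6%, against a median of 7. Rarb held 17 and Cyp26a1 held 26, while the window of Cyp26c1 held 5 and that of Cyp26b1 held 9. In these sequences, chr9:54764498-54764747 for Crabp1 and chr9:71215539-71215788 for Aldh1a2, both on the plus strand, capitals mark the CpG.
Crabp1: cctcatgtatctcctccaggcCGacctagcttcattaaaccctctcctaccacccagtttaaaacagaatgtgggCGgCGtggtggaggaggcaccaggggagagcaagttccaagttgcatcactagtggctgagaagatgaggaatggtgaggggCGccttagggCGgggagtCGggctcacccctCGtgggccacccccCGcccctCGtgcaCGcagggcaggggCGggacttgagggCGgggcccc
Aldh1a2: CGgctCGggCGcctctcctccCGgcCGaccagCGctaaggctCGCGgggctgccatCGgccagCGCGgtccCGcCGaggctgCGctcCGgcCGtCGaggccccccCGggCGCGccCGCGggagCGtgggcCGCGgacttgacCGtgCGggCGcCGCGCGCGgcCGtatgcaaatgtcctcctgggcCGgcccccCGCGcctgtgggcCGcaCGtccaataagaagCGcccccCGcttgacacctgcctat

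The RNA libraries held 8140106 to 12743460 counted reads in the 3 related lines and 6957248 to 9443814 in Eed fl/fl cells, which had counts at 43762 to 46757 gene names against 23578 to 28032. The deleted gene was checked first. Rnf2, the gene of RING1B, stood at 198 to 257 CPM (counts scaled to library size, with TMM factors) without OHT and 144 to 167 with OHT in Parental cells, and since the counts do not separate the deleted exons, this does not check the deletion. Eed stood at 173 to 255 CPM without OHT and 43.7 to 67.1 with OHT in Eed fl/fl cells. No source used here says that replicates came from separate cultures, so p-values measure the spread between these samples. In bulk RNA, fewer cells of a type and less RNA per cell cannot be told apart.

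In Parental cells, OHT was followed by higher RNA of the transporter, the synthesising enzyme, 1 binding protein and the degrading enzymes, and by lower RNA of 1 receptor. Crabp1, which binds retinoic acid in the cytoplasm, showed the lowest adjusted p of the members. A call here means a log2 fold change of 1.5 or more in either direction together with an FDR under 0.05 (Benjamini-Hochberg, edgeR's quasi-likelihood test). Of the 10 members, 9 passed the filter on low counts, 6 were called higher and 1 lower, against 15.1% and 1.83% of the 18154 genes tested. Cyp26a1, Cyp26b1, Cyp26c1 and Stra6 were at or below 1.08 CPM in every library of the 3 lines without OHT, so they passed the filter through libraries with OHT and had to differ, and the count of 6 is no evidence beyond the single genes.

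Uptake and synthesis come first. Stra6 (chr9:58063788-58153996, plus strand) stood at 0.815 and 0 CPM in the Parental libraries without OHT and at 9.05 and 9.36 with OHT. The groups did not overlap, and Stra6 rose by 4.25 on the log2 scale (SE 0.58, adjusted p = 1.69e-05 from edgeR). The size of this change rests on the first control library: without it the fitted value was 9.53, since Stra6 had no counts in the other. Aldh1a2 (chr9:71215789-71296243, plus strand) had 5.30 and 4.33 CPM without OHT and 37.8 and 36.5 with OHT. It rose by 2.93 (SE 0.33, adjusted p = 1.93e-06 from edgeR), and leaving out any of the 4 libraries gave 2.77 to 3.07.

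The binding proteins were present before OHT. Crabp1 (chr9:54764748-54773110, plus strand) had 23.9 and 18.5 CPM without OHT and 166 and 166 with OHT, a rise of 2.96 (SE 0.21, adjusted p = 7.73e-09 from edgeR). Crabp2 (chr3:87948666-87953376, plus strand), which delivers retinoic acid to the receptors, had 17.7 and 16.7 CPM without OHT and 49.2 and 46.1 with OHT. Its groups did not overlap, but its log2 fold change of 1.47 (SE 0.25, adjusted p = 0.000132 from edgeR) lay just under the fold threshold, and it was not called.

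The CYP26 enzymes, which clear retinoic acid by oxidation, were nearly silent without OHT. Cyp26a1 (chr19:37697798-37701536, plus strand) was at 0 and 0 counts in Parental cells before OHT and at 84 and 66 counts with OHT, or 7.17 and 6.43 CPM. Taken against a floor of 3 counts over the group, its RNA was at least 46.3-fold higher with OHT, and it was called (adjusted p = 7.17e-06 from edgeR). Its neighbour Cyp26c1 (chr19:37685581-37693398, plus strand) had 0 counts without OHT and 16 and 7 with OHT, which is at least 7.11-fold higher by the same floor. That gene was called in the fit of the 12 libraries but not when the Parental line was fitted alone. Cyp26b1 (chr6:84571414-84593908, minus strand) had 9 and 1 counts without OHT and 94 and 42 with OHT, and rose by 3.65 (SE 0.63, adjusted p = 0.000168 from edgeR). The 4 libraries give it a wide spread, as leaving out each in turn moved the value between 3.00 and 5.46.

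Of the receptors, Rarg was lower with OHT and Rarb was barely detected. Rarg (chr15:102234938-102257517, minus strand) fell from 44.4 and 38.8 CPM without OHT to 12.8 and 15.6 with OHT, a log2 fold change of −1.55 (SE 0.24, adjusted p = 6.64e-05 from edgeR). This sat at the fold threshold: without the first library of either group the value was −1.48 or −1.41 and the call was lost, while the adjusted p stayed at 0.000753 and 0.00375. Rara (chr11:98927818-98974942, plus strand) had 131 and 90.4 CPM without OHT and 59.3 and 64.3 with OHT. Its log2 fold change of −0.84 (SE 0.22, adjusted p = 0.00629 from edgeR) passed the FDR but not the fold threshold. Rarb (chr14:16430839-16819156, minus strand), whose start holds the repeat shown above, had 0 and 1 counts without OHT and 4 and 0 with OHT, too few to test. Of its exonic bases, 38.4% overlap the genes Gm48162 and Top2b, and reads there cannot be assigned without strand.

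**Figure D1:**
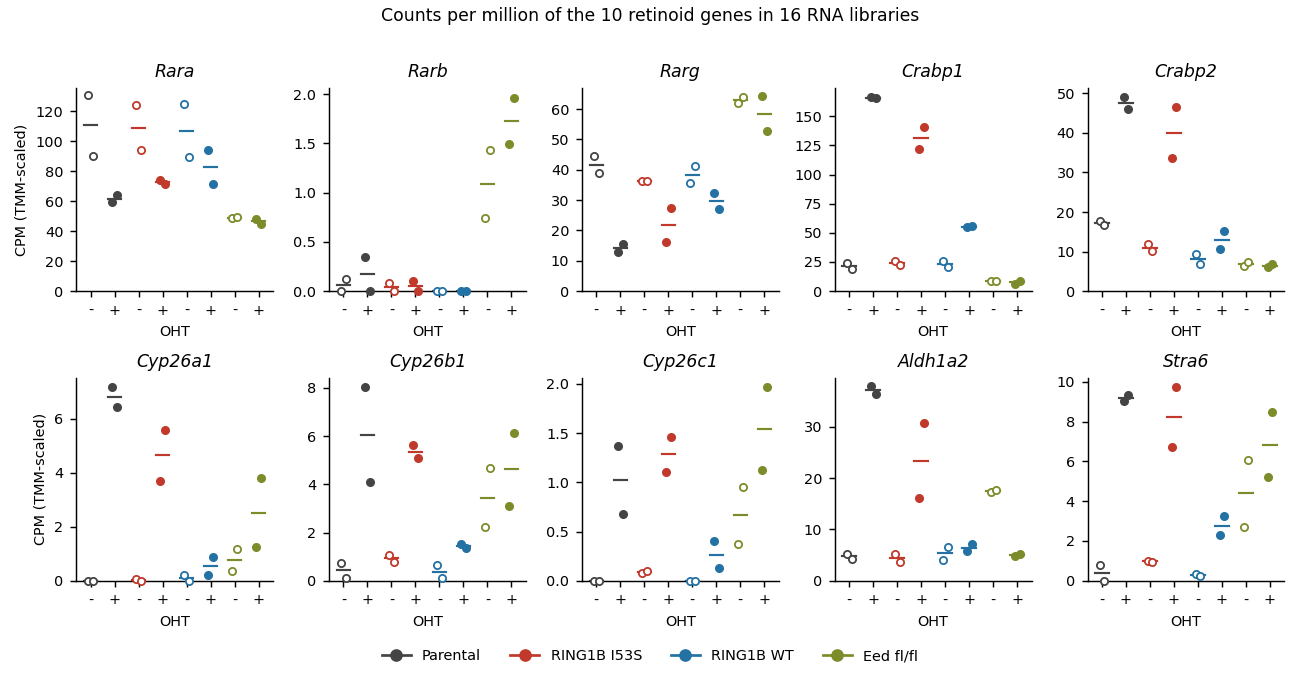
TMM-scaled CPM (y axis, linear, from 0) of the 10 genes in 16 libraries. Open points are libraries without OHT, filled points libraries with OHT, bars the mean of 2, and colours the line; in Parental cells (grey), Crabp1 stands at 18.5 to 23.9 without OHT and at 166 with OHT, while Aldh1a2 in Eed fl/fl cells (green) goes from 17.3 and 17.7 to 4.73 and 5.15.

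In the RING1B I53S line the endogenous RING1B is deleted by OHT and a form without catalytic activity stays. There 7 members were called higher and 0 lower, against 12.8% and 1.04% of all genes tested, with the same reservation for the 4 genes that were nearly silent without OHT. Crabp1 went from 25.4 and 22.4 CPM to 122 and 141 and rose by 2.46 (SE 0.20, adjusted p = 1.33e-07 from edgeR). Crabp2 went from 11.8 and 10.1 CPM to 33.6 and 46.6 and rose by 1.87 (SE 0.25, adjusted p = 2.13e-05). In both genes the libraries with OHT lay above those without.

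Among the enzymes in this line, Aldh1a2 had 5.18 and 3.65 CPM without OHT and 16.05 and 30.7 with OHT, a rise of 2.395 (SE 0.33). Cyp26a1 had 1 and 0 counts without OHT and 37 and 65 with OHT, a ratio of 110 with a 95% counting interval from 19.4 to 4404. Cyp26c1 had 1 and 1 counts against 11 and 17, a ratio of 15.2 (3.82 to 131), and it was the least firm of the calls. It was lost with DESeq2 (adjusted p = 0.0632) and without either library of the group without OHT (adjusted p = 0.0837 and 0.0867). Cyp26b1 had 1.08 and 0.767 CPM without OHT and 5.62 and 5.08 with OHT, and rose by 2.502 (SE 0.56, adjusted p = 0.00242). Stra6 had 1.00 and 0.959 CPM without OHT and 6.72 and 9.73 with OHT, and rose by 3.05 (SE 0.52, adjusted p = 0.000218).

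The receptors of the RING1B I53S line showed smaller differences than the fold threshold. Rarg had 36.4 and 36.2 CPM without OHT and 16.3 and 27.3 with OHT, a log2 fold change of −0.73 (SE 0.24, adjusted p = 0.0265 from edgeR). Rara had 124 and 94.2 CPM without OHT and 73.9 and 71.5 with OHT, a log2 fold change of −0.59 (SE 0.22, adjusted p = 0.0571). Rarb had 1 count in 1 of 2 libraries of either group.

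The RING1B WT line gives the change that OHT brings when active RING1B is supplied. Only Stra6 was called higher among the members and none lower, against 1.34% and 0.0386% of all genes tested. The reservation for genes nearly silent without OHT holds for Stra6 here too. Stra6 had 0.321 and 0.219 CPM without OHT and 2.31 and 3.24 with OHT, a rise of 3.29 (SE 0.71, adjusted p = 0.0183 from edgeR). That call was lost without the first or second library of the group without OHT (adjusted p = 0.0584 and 0.18) and without the second library with OHT (0.154). Crabp1 had 26.0 and 20.7 CPM without OHT and 54.9 and 55.7 with OHT, with no overlap, and its log2 fold change of 1.24 (SE 0.20, adjusted p = 0.00277) passed the FDR but not the fold threshold. Aldh1a2 had 4.06 and 6.58 CPM without OHT and 5.74 and 7.10 with OHT, a log2 fold change of 0.27 (SE 0.35, adjusted p = 0.770), and its groups overlapped. Cyp26a1 had 2 and 0 counts against 2 and 7, a ratio of 4.63 with a 95% counting interval from 0.957 to 44.0.

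The OHT effects of the lines were then compared directly. Between RING1B WT and Parental cells, 0 members had a called difference upward and 2 downward, against 0.435% and 1.1% of all genes tested: Aldh1a2, by −2.67 (SE 0.48, adjusted p = 0.00455 from edgeR), and Crabp1, by −1.72 (SE 0.28, adjusted p = 0.00219). Rarg differed by 1.19 (SE 0.34, adjusted p = 0.072) and was not called. Between RING1B I53S and Parental cells no member was called in either direction, and neither was any other gene (0% and 0% of 18154). With DESeq2 the count was also 0, and 1 member, Rarg, had an unadjusted p under 0.05 (2.69% of all genes), with a difference of 0.82 (SE 0.34). The other members' differences in that comparison included −0.51 (SE 0.28) for Crabp1 and −0.54 (SE 0.46) for Aldh1a2, with adjusted p-values of 1.00. Those of Stra6 and Cyp26b1 were larger and less certain, at −1.20 (SE 0.81) and −1.15 (SE 0.86). Rara and Crabp2 differed upward, by 0.26 (SE 0.32) and 0.40 (SE 0.35). The fitted values of Cyp26a1 (−2.72, SE 2.32) and Cyp26c1 (−2.70, SE 2.06) rest on Parental groups at 0 counts. Both comparisons share the Parental libraries.

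The 2 transgenic lines were also compared with each other, both with OHT. In RING1B I53S against RING1B WT cells, 5 members were called higher and 0 lower, against 6.02% and 0.6% of all genes tested. Cyp26a1 had 0.201 and 0.872 CPM in RING1B WT cells with OHT and passed the filter only through other groups with OHT. Its part in the count is therefore no evidence beyond the single gene. Cyp26a1 was higher by 3.16 (SE 0.66, adjusted p = 0.004 from edgeR), Cyp26b1 by 1.88 (SE 0.55, 0.0285), Aldh1a2 by 1.87 (SE 0.32, 0.00094), Crabp2 by 1.64 (SE 0.25, 0.000379) and Stra6 by 1.58 (SE 0.47, 0.0323). Crabp1 was higher by 1.25 (SE 0.19, adjusted p = 0.000393), under the fold threshold. This count depended on single libraries: it was 1 (Aldh1a2) without the first RING1B WT library, 3 without the second, and 1 (Cyp26a1) without the second RING1B I53S library.

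Without OHT no member was called between RING1B I53S and Parental cells (0.0881% of all genes higher, 0.0661% lower) or between RING1B WT and Parental cells (0.0496% higher, 0.011% lower) by edgeR. In each comparison 1 member, Crabp2, had an unadjusted p under 0.05, against 5.22% and 4.54% of all genes. It was lower by 1.09 on the log2 scale in RING1B WT cells, at 9.30 and 6.80 CPM against 17.7 and 16.7 in Parental cells (a log2 fold change of −1.09, SE 0.26, adjusted p = 0.273).

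**Figure D2:**
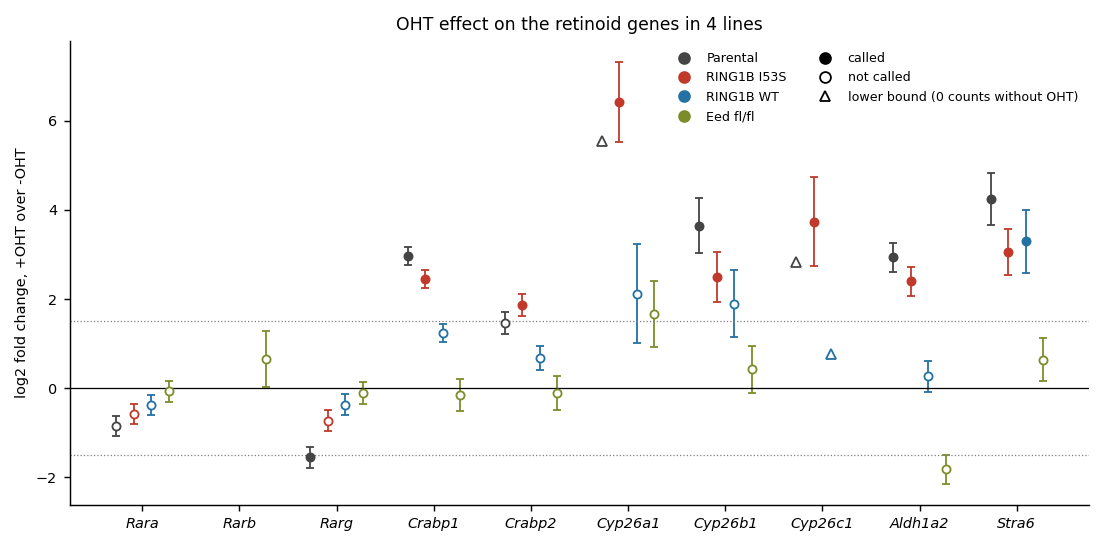
Log2 fold change with OHT (y axis; points with bars of 1 SE; dotted lines at the fold threshold of 1.5) of each gene in 4 lines, from edgeR. Filled points were called, open points were not, triangles are lower bounds where the group without OHT had 0 counts (Cyp26a1 and Cyp26c1 were called in Parental cells); grey and red points lie above the threshold for the enzymes, Crabp1 and Stra6, while Aldh1a2 in Eed fl/fl cells lies at −1.82.

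Deletion of EED gave another picture. In Eed fl/fl cells 9 members were tested (Cyp26c1 failed the filter) and none was called by edgeR, against 0.00795% of 25170 genes higher and 0% lower. DESeq2 called 1 member (0.145% of all genes), and 2 members had an unadjusted p under 0.05 (5.45% of all genes). When the replicate number entered the edgeR fit as a block, it called 2 members, Aldh1a2 and Cyp26a1, and 0.64% of all genes. One of these was Aldh1a2, which had 17.3 and 17.7 CPM without OHT and 4.73 and 5.15 with OHT. The groups were well apart and the log2 fold change was −1.82 (SE 0.32), opposite in sign to that in Parental cells, with an adjusted p of 0.118 from edgeR. DESeq2 gave −1.96 with an adjusted p of 0.00871 and a joint fit of all 16 libraries −1.76 with 0.00405. With the block the adjusted p of Aldh1a2 was 6.53e-07. The second was Cyp26a1, with 3 and 10 counts without OHT and 10 and 31 with OHT, a log2 fold change of 1.67 (SE 0.74, adjusted p = 0.833 from edgeR, or 0.0455 with the block).

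The other members of the Eed fl/fl line did not pass the test. Crabp1 had 8.76 and 8.37 CPM without OHT and 6.47 and 8.84 with OHT, and Rarg 62.1 and 63.8 against 64.4 and 52.7. Rarb, nearly absent elsewhere, had 6 and 12 counts without OHT and 12 and 16 with OHT, in libraries that had counts at many more gene names. Cyp26b1 had 2.22 and 4.66 CPM without OHT and 3.11 and 6.14 with OHT, and Stra6 2.71 and 6.10 against 5.23 and 8.47, so the groups overlapped.

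The difference between the OHT effects of Eed fl/fl and Parental cells was tested in a fit of all 16 libraries, in which 10 members were tested, 1 was called higher and 5 lower, against 0.69% and 3.96% of 27663 genes. Aldh1a2 differed most clearly, by −4.66 (SE 0.46, adjusted p = 1.11e-07 from edgeR), followed by Crabp1 at −3.02 (SE 0.33, adjusted p = 4.65e-07). Stra6 (−3.53) and Cyp26b1 (−3.13) were also called lower, Cyp26a1 was called lower with a fitted value that rests on a group at 0 counts, and Rarg (1.53) was called higher. The lines are different ESC derivations, so line and deleted complex cannot be told apart in this comparison. The Eed fl/fl libraries also had counts at many more gene names. Without OHT, Cyp26a1 had 3 and 10 counts in Eed fl/fl cells and 0 and 0 in Parental cells. How far such base levels enter the differences was not tested. The call of Rarg was lost and that of Crabp2 gained under RLE normalization, and with no filter on low counts.

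Levels between genes were compared per kb of exon. In Parental cells without OHT, Crabp1 (26.4 ± 4.70 CPM per kb, SD, n = 2) and Rara (25.4 ± 6.63) stood highest and did not differ beyond their spread, followed by Crabp2 (13.0 ± 0.53), Rarg (9.77 ± 0.93) and Aldh1a2 (2.13 ± 0.30). The other members were at or below 0.0801 CPM per kb. With OHT the order was Crabp1 (207 ± 0.39), Crabp2 (36.0 ± 1.65), Aldh1a2 (16.4 ± 0.43), Rara (14.2 ± 0.82), Cyp26a1 (3.43 ± 0.26) and Rarg (3.33 ± 0.46), where the last pair did not differ beyond their spread.

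Other genes of the pathway were followed from 3 lists, chosen with earlier results of these data known, so their counts are descriptions. Of 24 further genes of retinoid transport and metabolism, 23 were in the table and 15 were tested in Parental cells. The median log2 fold change of the 15 was 0.92 against 0.03 over all genes. Of them, 5 were called higher and 0 lower, against 15.1% and 1.83% of all genes tested. Among the called genes the lowest adjusted p were those of Rbp4, the serum carrier of retinol (2.89 ± 0.06 CPM without and 46.6 ± 1.97 with OHT, log2 fold change 4.00, adjusted p = 1.43e-08 from edgeR), Fabp5, a lipid carrier (2.78, 9.88e-08), and Aldh1a3, another retinaldehyde dehydrogenase (2.12, 0.000145). Lrat and Rdh10 were the other 2. Dhrs4, a retinal reductase named here after its value was seen, had a log2 fold change of −1.15 (adjusted p = 0.000144 from edgeR), which passed the FDR but not the fold threshold. In RING1B I53S cells 4 were called higher (12.8% of all genes). In RING1B WT cells 1 was (1.34% of all genes), Fabp5 at 1.54 (adjusted p = 0.00277 from edgeR).

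Of 16 receptors and coregulators, all 16 were tested in Parental cells, with a median of −0.18. Only 1 was called higher and 0 lower, against 15.1% and 1.83% of all genes tested. That gene was Rxrg, a partner of the receptors, with 0 counts without OHT and 128 with OHT over both libraries, at least 39.5-fold higher. It was called in RING1B I53S cells (log2 fold change 3.85) and in RING1B WT cells too (0 against 14 counts, at least 4.80-fold higher, adjusted p = 0.048).

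Of 20 genes known to respond to retinoic acid, 16 passed the filter in Parental cells, with a median log2 fold change of 3.11. All 16 were called higher and 0 lower, against 15.1% and 1.83% of all genes tested. Several of these were at or near 0 without OHT and had to differ once they passed. The list was also chosen with earlier results of these data known, so the count of 16 is a description and no test. The 2 with the lowest adjusted p were Rec8 (2.37, adjusted p = 1.76e-07 from edgeR) and Stra8 (2.66, 5.33e-07), both germ-cell genes. In RING1B I53S cells 14 were called higher (12.8% of all genes), with a median of 2.99. In RING1B WT cells 1 was (1.34% of all genes), Stra8 at 2.03 (adjusted p = 0.00147 from edgeR). The median there was 1.04, or 1.01 with a gene at 0 counts set to its bound. In Eed fl/fl cells 14 were tested and none was called by edgeR (0.00795% of all genes were called higher), with a median of 0.45. These genes are also known Polycomb targets, and retinoic acid itself was not measured.

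**Figure D3:**
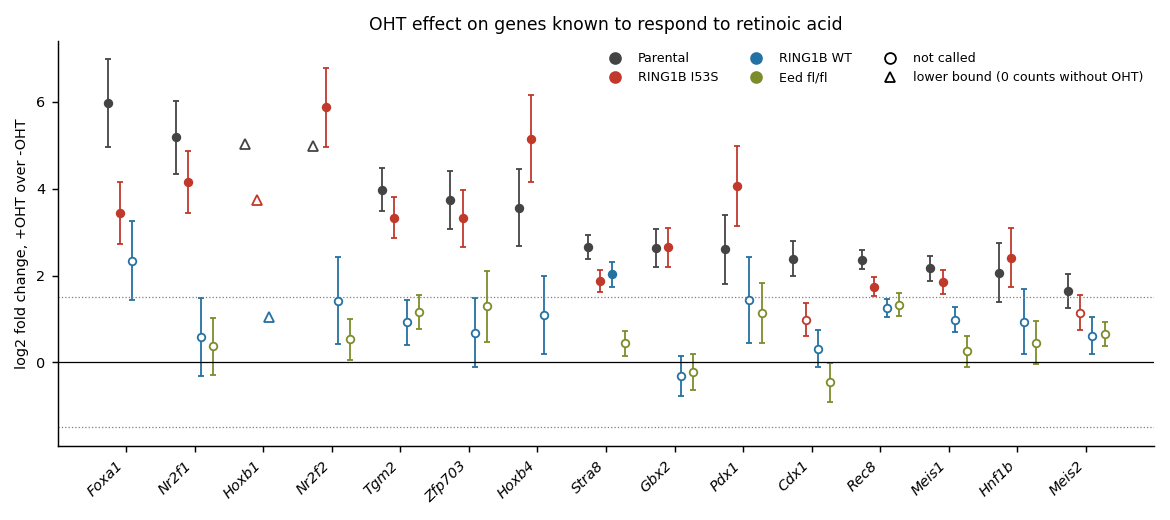
Log2 fold change with OHT (y axis, with bars of 1 SE) of 15 of the 16 tested genes known to respond to retinoic acid in 4 lines, ordered by the value in Parental cells. Filled points were called, open points were not and triangles are lower bounds; of the blue points (RING1B WT), that of Stra8 at 2.03 is the one called.

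Over the 12 libraries of the 3 related lines, the genes whose log2 CPM followed that of Crabp1 most closely were Gstk1 (Pearson r = 0.995), Slc7a8 (0.995), Gm32585 (0.993), Gm21321 (0.990) and Rhox9 (0.990). The points share the libraries and the OHT groups, and the values are a description.

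Cell type markers moved with the same groups. The summed level of 8 ESC markers was 4189 to 5141 CPM without OHT and 1655 to 1790 with OHT in Parental cells, 4192 to 4985 and 2015 to 2190 in RING1B I53S cells, 4355 to 5598 and 3934 to 3948 in RING1B WT cells, and 3434 to 4556 and 2708 to 3523 in Eed fl/fl cells. That of 8 primitive endoderm markers was 30.9 to 31.2 CPM without and 75.6 to 85.6 with OHT in Parental cells, with Gata6, Sox7 and Foxa2 at 0 in both libraries without OHT. In Parental cells 1.83% of all genes tested were called lower and 15.1% higher. Of the 8 ESC markers 3 were called lower and 0 higher in Parental cells. Of the 8 primitive endoderm markers 7 were called higher there, as were 4 of 6 trophoblast and 3 of 5 neural markers tested, with 1 neural marker lower. The summed trophoblast markers were at 142 to 167 CPM without OHT and 331 to 344 with OHT, and the neural ones at 73.9 to 108 and 80.8 to 91.0. Of 8 fibroblast markers, 3 of 4 tested were called higher, at 12.2 to 15.1 CPM in sum without and 49.6 to 51.5 with OHT, with Col3a1, Lum and Dcn at 0 in both groups. Whether cells of these types were present, and their part in the retinoid values, was not tested.

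At the chromatin level, the members split into genes with large Polycomb peaks, Cyp26a1, Cyp26b1, Cyp26c1, Aldh1a2 and Crabp1, and genes with small ones. Peak scores are −log10 p-values given for each library, and the lowest deposited score was 10, so that no peak means no region past that threshold. Scores depend on the depth and enrichment of a library, which the lists do not hold, so they are compared between genes within a library, and between libraries only side by side, with no test. Each count is set beside the share of the 21910 protein-coding genes with a peak in the same library. Cyp26a1 and Cyp26c1 lie next to each other and share peaks, so they are not independent.

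RING1B itself had peaks at 7 members in Parental cells without OHT (19.5% of all genes). The scores were 189 at Cyp26b1, 165 at Aldh1a2, 134 at the shared Cyp26a1 and Cyp26c1 locus, 102 at Crabp1, 21.7 at Rarb and 12.5 at Rara. Rarg, Crabp2 and Stra6 had none. With OHT 1 member, Rara, had RING1B peaks (2.36% of all genes), of which the highest scored 17.7 and was centred 6914 bases past the nearest start. In RING1B WT cells with OHT the same 7 members had peaks (15.0%), with scores of 179 at Cyp26b1, 116 at Cyp26a1 and 93.9 at Aldh1a2. In RING1B I53S cells with OHT 3 had peaks (4.21%): Rara at 19.6, Aldh1a2 at 14.1 and Cyp26b1 at 10.4. With a score of at least 20 required, no member had a RING1B peak in Parental or RING1B I53S cells with OHT.

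The position of these peaks differed between genes. The Aldh1a2 peak (chr9:71215047-71217762) and the Crabp1 peak (chr9:54763579-54766257) lay across the starts shown above, and that of Rarb (chr14:16575088-16575768) covered its start and the receptor repeat. That of Cyp26a1 (chr19:37695678-37699953) also lay across the start and the repeat. At Cyp26b1 the peak (chr6:84582377-84590587) lay inside the gene body, over internal start sites, and was centred 1198 bases past the nearest. The RefSeq window at the upstream end of Cyp26b1 was covered in 2 of 69 libraries, both of H3K27me3, against 48 for Aldh1a2, 49 for Cyp26a1 and 39 for Crabp1.

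H2AK119ub1, the mark that RING1B places, was found at 9 members in Parental cells without OHT (26.3% of all genes), at 7 with OHT (22.4%), at 10 in RING1B WT cells with OHT (31.4%) and at 7 in RING1B I53S cells with OHT (12.8%). Peaks were thus still listed in Parental cells with OHT, and they covered fewer bases at each of the 7 members than without it. The paper added fly chromatin as a reference (spike-in) to its histone ChIP and scaled its signal tracks by it. It reports loss of H2AK119ub1 by 72 h of OHT. Its stated settings for calling peaks include no such scaling, so listed peaks and scores do not measure how much mark was left. At the Cyp26a1 and Cyp26c1 locus 1 peak of 16018 bases (chr19:37685239-37701256) gave way to peaks of 3878 and 1063 bases. At Cyp26b1 peaks covered 16721 bases of the window without and 8911 with OHT, and at Stra6 22217 and 728. At Aldh1a2 the listed score was 24.3 without and 53.7 with OHT, for lengths of 2346 and 1663 bases, and at Crabp1 it was 18.6 and 31.8. These peaks did not lie over the same stretch. Over the start-site windows of both genes, H2AK119ub1 peaks were listed in Parental cells with OHT and in no other H2AK119ub1 library. The scores in RING1B I53S cells were 38.2 at Aldh1a2 and 11.6 at Crabp1.

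The PRC1 subunits PCGF2 and CBX7 had no listed peak at any member in Parental cells with OHT. The paper reports that PCGF2 protein was destabilized without RING1B and rescued by both transgenes. Its part in the missing peaks was not tested. PCGF2 peaks were listed at 7 members in Parental cells without OHT (18.7% of all genes), with the highest score of 310 at Cyp26b1, and at 0 with OHT (0.333%). In RING1B WT cells with OHT 6 members had them (13.9%), and in RING1B I53S cells 3 (2.59%): Aldh1a2 at 46.7, Cyp26b1 at 26.5 and Cyp26a1 at 16.005. CBX7, which binds H3K27me3, had peaks at 8 members without OHT (18.9%), up to 792 at Cyp26b1, and at 0 with OHT (0.278%). The counts were 5 in RING1B WT (9.95%) and 0 in RING1B I53S cells (0.169%). In these libraries few genes of any kind had a peak.

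PCGF6 and RYBP belong to variant forms of PRC1. PCGF6 peaks were found at 7 members in Parental cells without OHT (30.3%), 5 with OHT (21.1%), 6 in RING1B WT (28.5%) and 4 in RING1B I53S cells (11.0%). At Cyp26b1 the PCGF6 score in Parental cells was 27.5 without OHT and 72.0 with OHT. RYBP peaks were found at 6 members in Parental cells without OHT (13.0%), at 1 in RING1B WT (5.37%) and at 1 in RING1B I53S cells (3.68%), in both cases Cyp26b1.

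**Figure D4:**
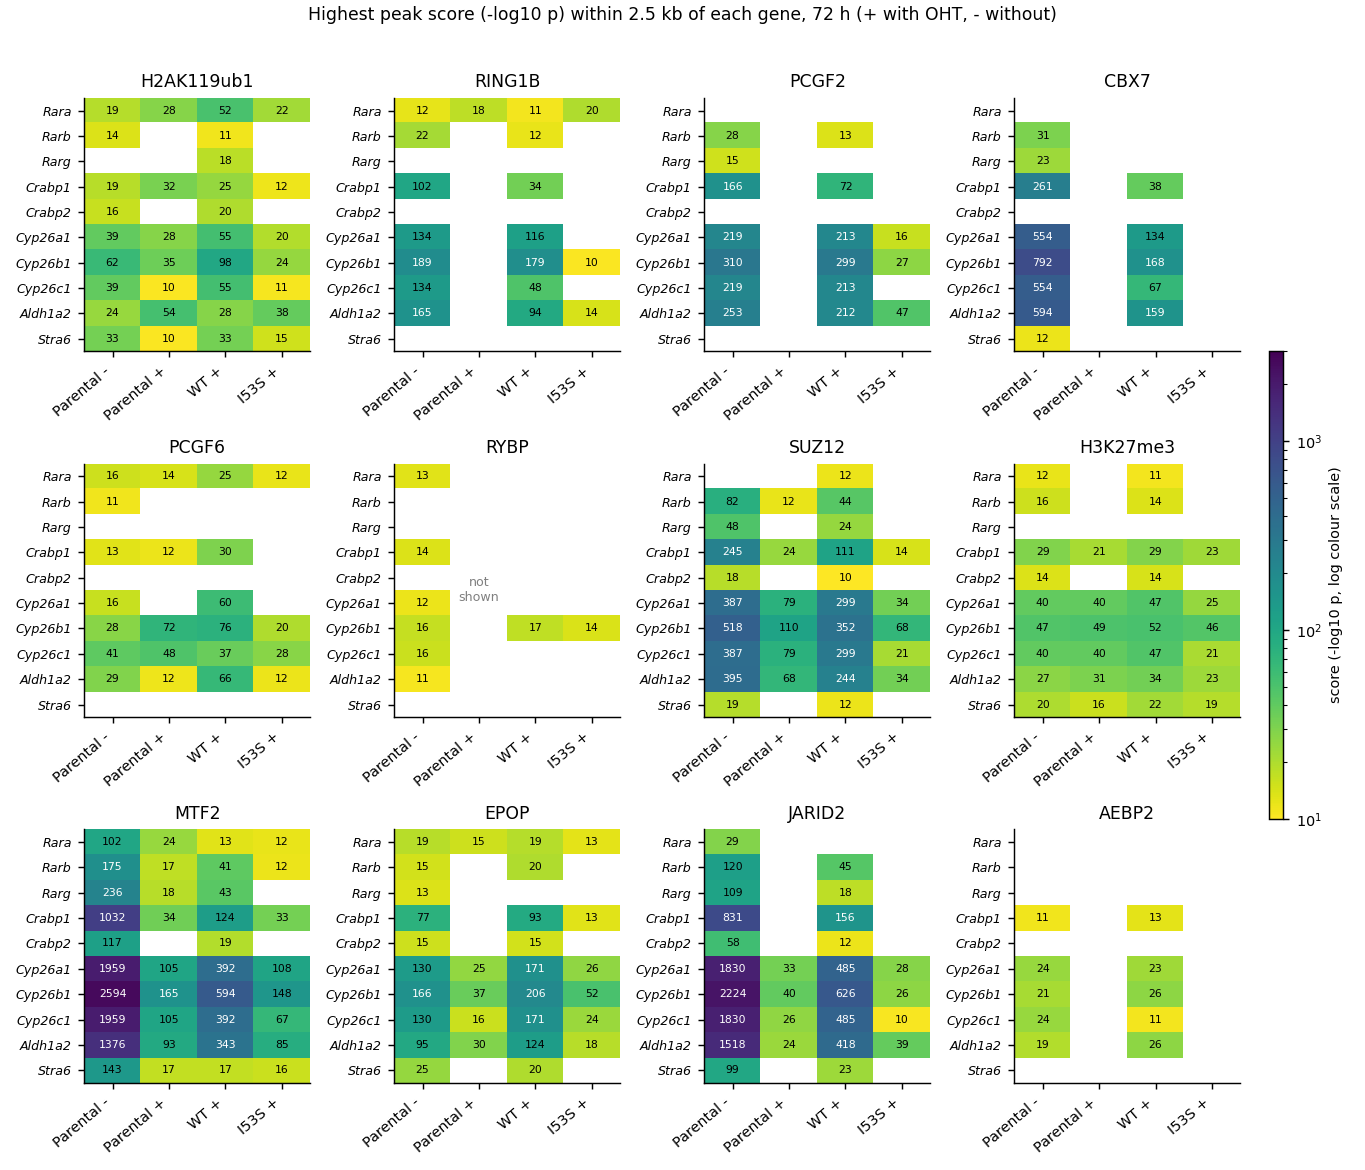
Highest peak score (−log10 p, printed and on a log colour scale) within 2.5 kb of each gene for 12 antibodies in 4 conditions at 72 h; + is with OHT, − without, and white means no listed peak. Where MTF2 and JARID2 have 2 libraries the higher score is shown. The rows of Cyp26a1, Cyp26b1, Cyp26c1 and Aldh1a2 keep SUZ12, MTF2 and JARID2 peaks with OHT at lower scores. Cyp26c1 shares peaks with its neighbour Cyp26a1. The PCGF2 and CBX7 columns of Parental cells with OHT are empty.

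SUZ12, a core subunit of PRC2, had peaks at 9 members in Parental cells without OHT (31.3% of all genes), 6 with OHT (23.0%), 10 in RING1B WT (26.1%) and 5 in RING1B I53S cells (14.4%). Peaks remained at Cyp26b1, Cyp26a1, Cyp26c1, Aldh1a2 and Crabp1 in all 4 conditions. The score of Aldh1a2 was 395 without OHT, 68.4 with OHT, 244 in RING1B WT and 33.7 in RING1B I53S cells, and that of Crabp1 was 245, 24.1, 111 and 14.1. Rarb kept a SUZ12 peak in Parental cells with OHT, at 12.1 against 82.0, and had none in RING1B I53S cells.

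H3K27me3, the mark of PRC2, was found at 9 members in Parental cells without OHT (30.6%), 6 with OHT (25.6%), 9 in RING1B WT (30.5%) and 6 in RING1B I53S cells (24.1%). The score at Cyp26b1 was 46.9, 49.3, 51.65 and 46.1 in that order, while at Cyp26a1 it was 39.7, 39.6, 47.3 and 24.6. As for H2AK119ub1, scores without spike-in scaling do not measure the amount of the mark. From its scaled signal the paper reports reduced H3K27me3 where H2AK119ub1 is lost. Peaks covered 24056 bases of the Cyp26b1 window without OHT, 15035 with OHT, 22180 in RING1B WT and 14037 in RING1B I53S cells. At Stra6 they covered 32844, 4672, 28935 and 6284 bases. Crabp2, Rara and Rarb had no listed H3K27me3 peak in Parental or RING1B I53S cells with OHT.

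Accessory subunits of PRC2 followed the same split. MTF2 peaks were found at 10 members in Parental cells without OHT (54.7%) and 9 with OHT (27.6%), at 10 in both RING1B WT libraries (30.4% and 27.6%), and at 5 and 8 in the 2 RING1B I53S libraries (12.6% and 28.1%), which thus differ between replicates. JARID2 peaks were found at 10 members without OHT (34.8%) and 4 with OHT (5.62%), at 8 and 9 in RING1B WT (20.3% and 20.0%), and at 4 and 3 in RING1B I53S cells (4.35% and 1.8%). The 4 members with JARID2 in Parental cells with OHT were Cyp26a1, Cyp26b1, Cyp26c1 and Aldh1a2, and the JARID2 score of Cyp26b1 was 2224 without OHT and 39.7 with OHT. Of these 4 members, 3 had a JARID2 peak within 2.5 kb of a start site, and none was listed over the start-site window of Cyp26c1. EPOP had peaks at 10 (26.2%), 5 (11.6%), 9 (26.4%) and 6 members (12.6%) in the order Parental without OHT, Parental with OHT, RING1B WT and RING1B I53S, and AEBP2 at 5 (4.61%), 0 (0.0685%), 5 (4.92%) and 0 (0.132%).

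Times of 48 and 72 h of OHT could be set side by side for MTF2 and JARID2, as the sample titles give them. In Parental cells the MTF2 score of Aldh1a2 was 1376 without OHT, 199 at 48 h and 93.2 at 72 h, and the JARID2 score 1518, 89.9 and 23.8. In RING1B WT cells the MTF2 score of Aldh1a2 was 516 without OHT, 394 at 48 h, and 343 and 251 in the 2 libraries at 72 h. Crabp1 had a JARID2 peak at 48 h in Parental cells (11.8) and none at 72 h.

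**Figure D5:**
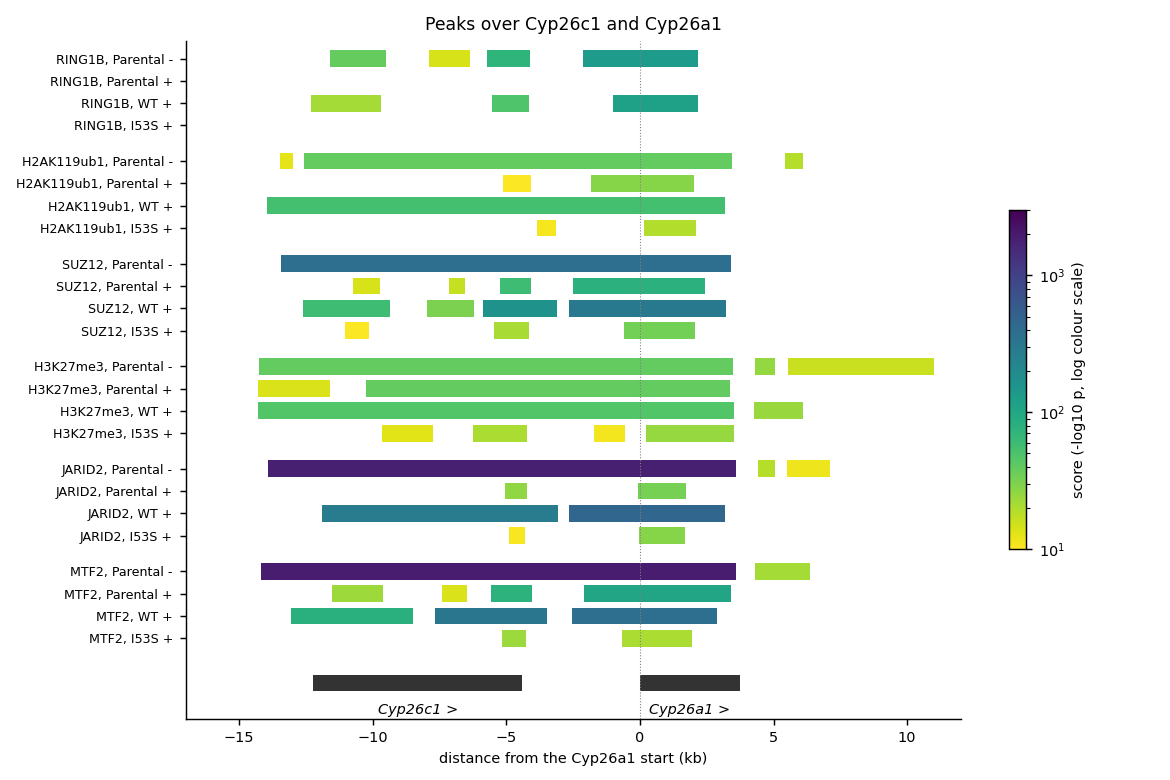
Listed peaks (bars; colour is the score on a log scale) over Cyp26c1 and Cyp26a1, by distance from the Cyp26a1 start in kb, for 6 antibodies in 4 conditions at 72 h (replicate 1 for MTF2 and JARID2 with OHT). Peaks that span both genes without OHT, such as the H2AK119ub1 peak of 16018 bases, are shorter in Parental and RING1B I53S cells with OHT. RING1B has no bar there. In Parental cells with OHT, separate H3K27me3 peaks lie over the starts of Cyp26c1 (score 13.7) and Cyp26a1 (39.6). The H3K27me3 peak of 13615 bases there does not cover both starts.

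In MTF2 KO cells fewer members had PRC2 peaks. SUZ12 peaks were listed at 5 members without OHT (12.2% of all genes), 4 with OHT (5.52%), 7 in RING1B WT (13.6%) and 1 in RING1B I53S cells (2.13%). H3K27me3 peaks were listed at 6 members without OHT (13.8%), 0 with OHT (1.04%), 5 in RING1B WT (8.37%) and 1, Cyp26b1, in RING1B I53S cells (4.19%). The SUZ12 score of Aldh1a2 was 87.5 without OHT and 12.85 with OHT, against 99.6 in the RING1B WT line with OHT and no peak in the RING1B I53S line. The 4 input libraries of these cells had no peak at any member.

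Over the 69 libraries, Cyp26b1 had a peak in 62, Aldh1a2 in 58, Cyp26a1 in 55, Cyp26c1 in 54, Crabp1 in 48, Rara in 34, Rarb in 31, Stra6 in 31, Rarg in 21 and Crabp2 in 18. Of the members called higher with OHT in Parental cells, Crabp1, Aldh1a2 and the 3 CYP26 genes had RING1B peaks without OHT, while Stra6 had broad H2AK119ub1 and H3K27me3 peaks but no RING1B peak in any condition. Crabp2, which was called higher with OHT in RING1B I53S cells, also had no RING1B peak in any condition and had peaks in the fewest libraries. In Parental cells without OHT, Crabp2 did have H2AK119ub1, SUZ12, H3K27me3, MTF2, EPOP and JARID2 peaks. None of these was listed at Crabp2 in Parental or RING1B I53S cells with OHT. The receptor Rarg, which was lower with OHT in Parental cells, had SUZ12 and CBX7 peaks at scores of 48.4 and 23.1 in Parental cells without OHT and none in Parental cells with OHT. Its MTF2 peak scored 236 without and 18.4 with OHT in these cells, and a SUZ12 peak of 24.5 was listed in RING1B WT cells with OHT. Rarb had a RING1B peak in Parental cells that was not listed with OHT, and its RNA stayed at 0 to 4 counts in each library of the 3 lines.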

How the data were processed

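RNA was measured by SMART-seq2 and chromatin by ChIP-seq. The authors deposited raw counts per gene name (STAR 2.7, unique reads, duplicates removed, featureCounts without strand, GENCODE M21, GRCm38/mm10). For ChIP-seq the authors deposited peak lists called in each library with MACS2 2.1.1 on Bowtie 1.2.2 alignments against input, whose score is −log10 p. Normalized counts and tables of the authors' own fold changes and adjusted p-values were not used. Samples were grouped by their labels. The members and lists were chosen with earlier results of these data known. Named genes were all 10 members and, of each list, the 3 called genes with the lowest adjusted p in Parental cells; 1 gene is not reported here. Other names were chosen after their values were seen.

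Counts were fitted with edgeR 4.0.16 (R 4.3.3; TMM, filterByExpr, quasi-likelihood, Benjamini-Hochberg), over the 12 libraries of the 3 related lines, over the 4 of Eed fl/fl, and over all 16 for the difference between them. Calls needed a log2 fold change of 1.5 or more in either direction, and an FDR under 0.05. Depth was 6957248 to 12743460 counts per library. On simulated data, 86% of genes changed by 2 on the log2 scale were called in the Parental comparison (18154 genes) and 54% in the Eed fl/fl one (25170 genes). Intervals and floors (3 counts over the group) cover counting error only. A peak counted at a gene with 1 bp of overlap within 2.5 kb. Alternatives were DESeq2 1.42.0, RLE normalization, no filter, FDR alone, a replicate block, other sets of libraries, each library left out, a peak score of at least 20 and start-site windows. For the difference between Eed fl/fl and Parental cells they were chosen after seeing the data. The RYBP library in no group and 4 inputs entered no comparison.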

Additional observations from a re-analysis of the deposited data

Results flagged for a closer look

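The results below are differences between the OHT effects of lines that passed the test of the difference itself (edgeR, Benjamini-Hochberg over all genes). Against Parental cells, the RING1B WT line differed for Crabp1 by −1.72 (adjusted p = 0.00219) and for Aldh1a2 by −2.67 (adjusted p = 0.00455). For both genes, each of the 2 RING1B WT libraries with OHT lay below both Parental ones.

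Eed fl/fl cells differed from Parental cells for Aldh1a2 by −4.66 (adjusted p = 1.11e-07 from edgeR), Crabp1 by −3.02 (4.65e-07), Stra6 by −3.53 (0.00659), Cyp26b1 by −3.13 (0.0289), Cyp26a1 by −7.36 (0.00944) and Rarg by 1.53 (0.00282). The value of Cyp26a1 rests on Parental libraries at 0 counts, depends on the prior count and is no bound. Line, deleted gene and the counts of the Eed fl/fl libraries at many more gene names cannot be told apart here.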

How the results depend on the processing

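Of the counts of called members, 76 alternatives stayed on the same side within 1.5 times, 6 were higher and 6 lower, and of the single genes' results 333 kept direction and call, 11 gained and 8 lost the call and 5 reversed. In Eed fl/fl cells the count of 0 became 1 (Aldh1a2) with DESeq2, 1 with the joint fit, 2 (Cyp26a1 and Aldh1a2) with the replicate block and 0 to 1 with a library left out. In RING1B WT cells the count of 1 became 2 by FDR alone and 0 to 1 with a library left out. For RING1B I53S against RING1B WT it was 1 to 4 with a library left out, and for Eed fl/fl minus Parental 4 to 6. With a library left out, values without a call turned sign in ranges of −0.043 to 0.65 (Aldh1a2, RING1B WT) and, in Eed fl/fl cells, −0.15 to 1.00 (Cyp26b1), −0.41 to 0.00216 (Crabp1) and −0.30 to 0.029 (Rarg); the reversed values were −0.043, −0.0081, −0.15, 0.00216 and 0.029. The cause was not tested where fewer samples do not give it.

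Same-numbered libraries with and without OHT deviated together with r of 0.105 (Parental), 0.0618 (RING1B WT), 0.204 (RING1B I53S) and 0.561 (Eed fl/fl). The labels tie the numbers to no shared batch or day and the correlation was not over 0.1 in every line, so the fits without the block are the ones reported. In Eed fl/fl cells, where it was highest, whether the numbers pair the libraries was not settled. Whether the replicate numbers stand for the separate Eed fl/fl clones that the paper lists is not given by the labels. The replicate block changed no other count of called members.

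Requiring a peak score of at least 20 moved 24 of the peak counts. They became, for H2AK119ub1, 5 (Parental without OHT) and 3 (RING1B I53S), and for RING1B 0 in Parental and 0 in RING1B I53S cells with OHT. For PCGF6 they became 3, 2 and 1 (Parental without and with OHT, RING1B I53S), and for RYBP 0 in all 3 libraries. In MTF2 KO cells SUZ12 counts became 0, 4 and 0 (Parental, RING1B WT and RING1B I53S with OHT) and H3K27me3 counts 1, 1 and 0 (Parental without OHT, RING1B WT and RING1B I53S). The counts became 5 for MTF2 and 0 for JARID2 in the second RING1B I53S libraries, 6, 3, 5 and 3 for EPOP in all 4 conditions, and 3 and 3 for AEBP2 (Parental without OHT, RING1B WT). With start-site windows the RYBP count in RING1B WT became 0, and 182 other values stayed within 1.5 times. Genes under 10 counts without OHT are limited by depth: the fold of Cyp26c1 and Cyp26a1 is known only as a bound or a wide interval.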

Other observations

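Before OHT, the transgenic lines already had lower MTF2 and JARID2 scores at the members than Parental cells, in 1 library each and with depths unknown. The MTF2 score of Cyp26b1 was 2594 in Parental, 839 in RING1B WT and 722 in RING1B I53S cells without OHT, and the JARID2 score 2224, 959 and 743. At 48 h of OHT the MTF2 score of Cyp26b1 was 389 in Parental, 713 in RING1B WT and 334 in RING1B I53S cells, and the JARID2 score of Aldh1a2 was 89.9, 358 and 57.2. JARID2 peaks were listed at 5 members in Parental (11.9% of all genes), 8 in RING1B WT (19.9%) and 4 in RING1B I53S cells (4.22%) at 48 h.

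No RYBP library was assigned to Parental cells with OHT. The labels left the group of 1 RYBP library unsettled, and it was placed in no group. It listed 61 peaks, 0.269% of protein-coding genes had a peak, and none of the 10 members did.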
